A study of Mus musculus with 2 samples.

Results

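The 36 genes described here encode proteins that build ribosomes in the nucleolus, and they were compared between a LacZ hairpin library and a Pspc1 hairpin library of mouse MS1 endothelial cells. They were taken by symbol: general nucleolar proteins, RNA polymerase I subunits and partners, core proteins of small nucleolar ribonucleoproteins (snoRNPs), and processing or assembly factors of the small and the large ribosomal subunit. All 36 were listed among the 11405 genes of the deposited tables. MS1 cells are immortalised endothelial cells that came from the islets of a mouse pancreas, and both groups carried a lentivirus with a short hairpin RNA. In the control group, labelled wild type, the hairpin was directed at LacZ, a bacterial gene. In the other group, labelled as a knockdown, it was directed at Pspc1, which encodes an RNA-binding protein of nuclear paraspeckles. Each group held 1 poly-A RNA library, so no spread between cultures was available, no test was possible, and every difference is one between 2 libraries. Whether the infected cells were a pool or a clone was not given in the sources used here.

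A ribosome starts as a long precursor rRNA that RNA polymerase I copies from repeated genes in the nucleolus. Box C/D and box H/ACA snoRNPs, guided by their small nucleolar RNAs (snoRNAs), methylate and pseudouridylate that precursor. A large processome then folds and cuts the small subunit part, while assembly factors mature the large subunit part. In dividing cells this pathway is among the main consumers of transcription, and many of its genes are known targets of MYC.

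Values are printed as deposited, on the authors' scale, with the LacZ library first. The log2 ratio of a gene is that of the Pspc1 hairpin library over the LacZ hairpin library, each value raised by 0.5, so a negative ratio means a lower value in the Pspc1 hairpin library. The interval beside a ratio is a 95% exact counting interval (Clopper-Pearson) from the reads behind the values, without the added 0.5, and it covers counting error only. Both libraries were deep, with 64009912 and 53518762 reads on the listed genes, of which the 36 genes held 0.625% and 0.590%. Pspc1 itself went from 28.8 to 3.78, or 7.62-fold lower (log2 ratio -2.77, interval -3.15 to -2.71). Of 15 endothelial markers 13 were listed, against 0 of 6 islet beta cell markers. The endothelial markers differed between the libraries in both directions: Pecam1 was at 2258 and 2175, Cdh5 at 859.4 and 511.2 (-0.75), Kdr at 148.9 and 77.3 (-0.94), Sox18 at 82.5 and 47.3 (-0.80) and Plvap at 494.7 and 823.9 (0.74). Of the 12 with a mean of 20 or more, 4 were at least 1.2-fold lower and 4 at least 1.2-fold higher. Over all genes of that mean these shares were 18.8% and 21.0%, against 33.3% each for the 12. Of the markers of other cell types, 1 of 6 acinar and ductal genes, 1 of 4 epithelial, 1 of 6 leukocyte and 2 of 9 fibroblast and mural genes were listed. These were Krt19 (23.8 and 115.2), Krt18 (23.9 and 36.9), Cd68 (102.7 and 123.7), Pdgfra (1.15 and 0.985) and Pdgfrb (0.720 and 2.38), and the part of any marker's difference in the results below was not tested.

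Some of these genes carry part of the machinery in their introns. In the GENCODE M21 annotation 7 of the 36 genes (Ncl, Nop56, Nop58, Dkc1, Gnl3, Ppan and Wdr43) enclosed 21 annotated snoRNA genes. One box C/D snoRNA from each of 5 hosts is shown, because the messenger RNA and the snoRNA of a host come from the same primary transcript. Sequences were copied from the annotation's transcripts (mm10), 5′ to 3′, with capitals marking a TGATGA in the first 20 bases (box C) and a CTGA in the last 15 bases (box D).
Snord82, inside Ncl, chr1:86356261-86356330, minus strand: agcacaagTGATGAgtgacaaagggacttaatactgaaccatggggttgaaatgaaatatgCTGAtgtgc
Snord92, inside Wdr43, chr17:71631281-71631365, plus strand: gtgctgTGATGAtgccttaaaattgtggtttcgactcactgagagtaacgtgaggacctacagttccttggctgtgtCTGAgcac
Snord11, inside Nop58, chr1:59704790-59704873, plus strand: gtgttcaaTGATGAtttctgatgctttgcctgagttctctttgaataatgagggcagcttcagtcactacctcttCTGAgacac
Snord69, inside Gnl3, chr14:31014287-31014366, minus strand: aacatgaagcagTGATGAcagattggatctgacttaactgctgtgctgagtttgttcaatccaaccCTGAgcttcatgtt
Snord110, inside Nop56, chr2:130275506-130275573, plus strand: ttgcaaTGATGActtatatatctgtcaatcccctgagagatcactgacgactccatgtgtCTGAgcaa
Both boxes were found in 9 of the 21. The snoRNAs themselves carry no poly-A tail, so their levels were not measured in these libraries. Some snoRNA genes, such as Snord69, touch an exon of an annotated transcript of their host.

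The promoters of the most separated genes are shown next: Ncl and Wdr43, which had the lowest log2 ratios, and Nop10 and Imp3, which had the highest. Without the added 0.5 the lowest was Ddx10, at -1.26 from 71 and 23 reads. Each window runs from 250 bases before to 50 bases after the RefSeq start (GRCm38.p6), 5′ to 3′ in the direction of the gene. Capitals mark, on either strand, the E-box CACGTG that MYC can bind, the GC box GGGCGG and the CCAAT box CCAAT.
Ncl promoter, chr1:86359406-86359705, minus strand: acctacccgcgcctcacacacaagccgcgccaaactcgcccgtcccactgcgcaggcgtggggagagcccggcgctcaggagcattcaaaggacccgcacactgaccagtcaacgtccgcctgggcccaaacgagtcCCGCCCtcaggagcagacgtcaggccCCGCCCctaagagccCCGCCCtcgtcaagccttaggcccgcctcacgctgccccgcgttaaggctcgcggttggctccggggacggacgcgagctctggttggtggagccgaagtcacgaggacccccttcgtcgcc
Wdr43 promoter, chr17:71615965-71616264, plus strand: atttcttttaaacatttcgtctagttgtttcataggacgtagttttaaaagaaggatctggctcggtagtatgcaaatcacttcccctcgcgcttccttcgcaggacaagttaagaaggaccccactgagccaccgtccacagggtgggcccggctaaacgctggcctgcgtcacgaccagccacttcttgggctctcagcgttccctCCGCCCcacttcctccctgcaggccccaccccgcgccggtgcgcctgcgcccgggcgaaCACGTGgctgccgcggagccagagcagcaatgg
Nop10 promoter, chr2:112261676-112261975, plus strand: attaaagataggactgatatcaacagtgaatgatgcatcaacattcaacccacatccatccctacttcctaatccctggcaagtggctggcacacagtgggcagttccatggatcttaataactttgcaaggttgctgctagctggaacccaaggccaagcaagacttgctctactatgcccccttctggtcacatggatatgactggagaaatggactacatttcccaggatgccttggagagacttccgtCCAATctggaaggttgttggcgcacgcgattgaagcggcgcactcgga
Imp3 promoter, chr9:56937250-56937549, plus strand: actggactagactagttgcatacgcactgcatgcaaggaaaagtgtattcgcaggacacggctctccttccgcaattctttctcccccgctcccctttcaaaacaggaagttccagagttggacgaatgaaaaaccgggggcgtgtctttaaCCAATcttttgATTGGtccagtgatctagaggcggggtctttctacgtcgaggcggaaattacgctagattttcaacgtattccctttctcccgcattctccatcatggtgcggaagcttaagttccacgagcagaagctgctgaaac
The Ncl and Wdr43 windows held GC boxes, the Nop10 and Imp3 windows CCAAT boxes, and of these 4 windows only that of Wdr43 held an E-box, 17 bases after the start. A window was found for 30 of the 36 genes. An E-box stood in 7 of the 30 (Wdr43, Utp20, Mybbp1a, Nop2, Pes1, Grwd1 and Imp4), or 23.3%, against 8.09% of the 27025 genes with a window. Those genes include many outside the 11405 listed ones. Motif shares over the listed genes alone were not computed, so the comparisons here are not with genes read in these libraries. A GC box stood in 21 (70.0%, against 38.2%), a CCAAT box in 11 (36.7%, against 41.1%), the ETS motif CCGGAAG in 10 (33.3%, against 9.93%) and TATAAA in 3 of 30 (against 15.7%). Of the 7 genes with an E-box, 3 were lower in the Pspc1 hairpin library and 4 higher, with log2 ratios from -1.02 (Wdr43) to 0.23 (Grwd1). Of the 21 with a GC box 11 were lower (median log2 ratio -0.16), and of the 11 with a CCAAT box 5 (median 0.02). The boxes of the 4 windows shown thus do not stand for the other genes. A match is a stretch of letters in the window and says nothing of binding.

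The 36 genes did not move together. Averaged over both libraries, 30 of the genes reached a value of 20 (called the mean below), and 10 of these had a lower and 20 a higher value in the Pspc1 hairpin library, with a median log2 ratio of 0.06 and a range from -1.02 to 0.49. Over all 5892 genes of that mean the median was 0.04, and 2653 were lower. At least 1.2-fold lower were 6 of the 30 (Ncl, Npm1, Polr1a, Wdr43, Nolc1 and Ddx18), against 18.8% of all genes of that mean. At least 1.2-fold higher were 4 (Nop10, Imp3, Nop16 and Nhp2), against 21.0%. Past 1.5-fold the lower genes were 4 (Ncl, Npm1, Polr1a and Wdr43), with a background of 5.52%, and the higher genes 0, with a background of 3.82%. Past 2-fold they were 2 (Ncl and Wdr43), with a background of 1.21%, and 0, with a background of 0.849%. The counts past 1.2-fold lie near or under the background, and the 4 lower genes past 1.5-fold make up 13.3% of the 30. That count fell to 2 after the length and GC subtraction described below, with a minimum mean of 50, and without the snoRNA hosts. Ncl and Wdr43 lie at the edge of 2-fold: when the libraries were scaled by trimmed means of M values (TMM), or by a median of ratios, the count past 2-fold was 0. Scaling by total reads moved all log2 ratios down by 0.10, which gave the 30 genes a median of -0.05 with 17 of them lower. In bulk libraries a lower value in every cell and a loss from part of the cells cannot be told apart.

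**Figure D1:**
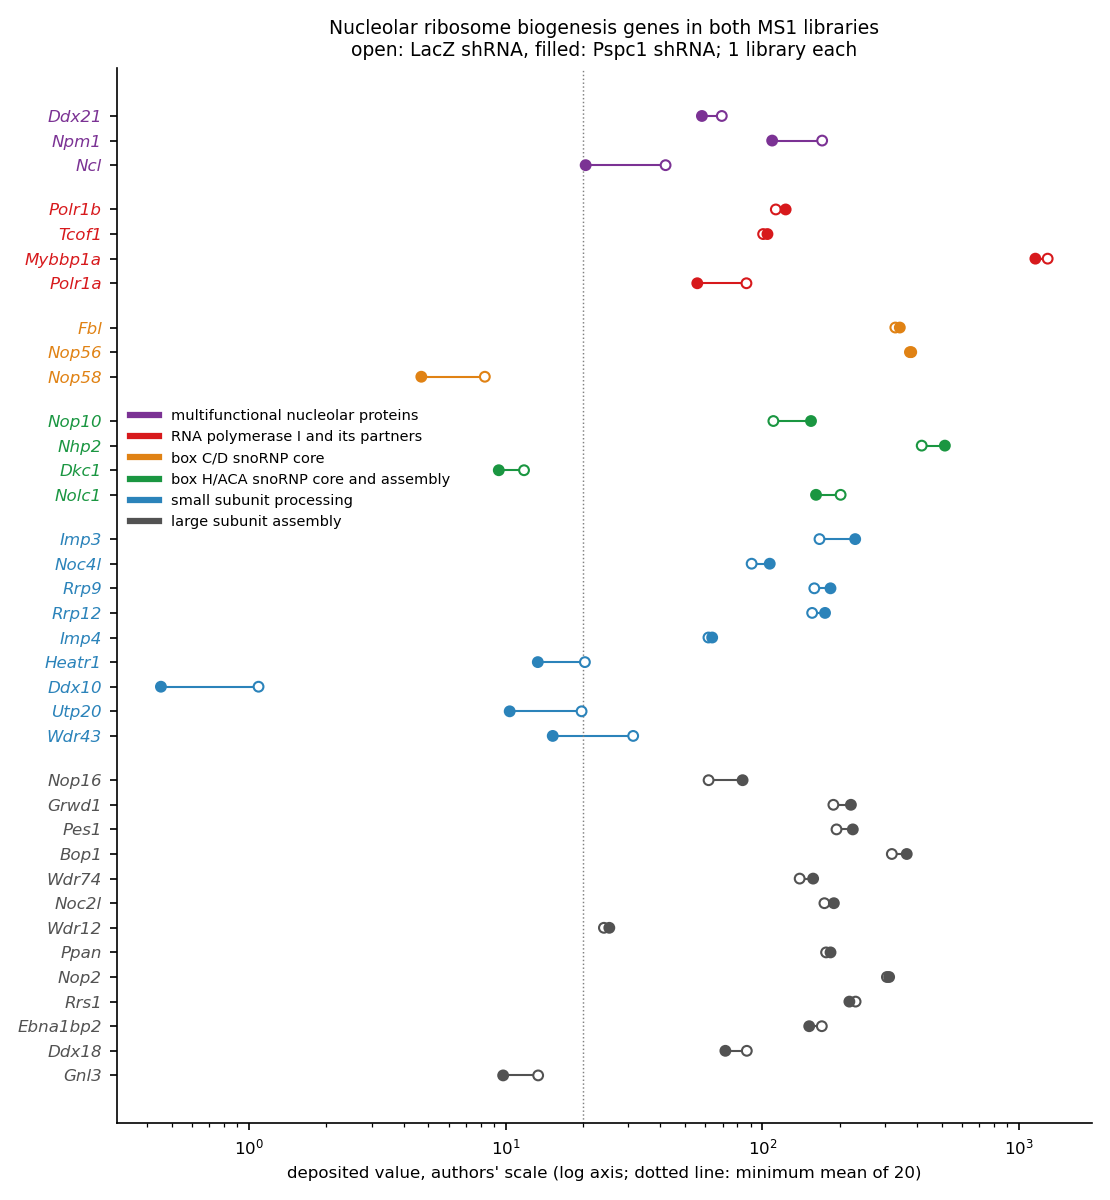
Deposited value of each of the 36 genes (x axis, authors' scale, log axis) in the LacZ hairpin library (open circles) and the Pspc1 hairpin library (filled circles), 1 library each, coloured by role, with a dotted line at 20. Ncl, Wdr43, Npm1 and Polr1a are shifted to the left in the Pspc1 hairpin library, while most genes above 100 lie close together in both.

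The genes of 3 general nucleolar proteins had the lowest median log2 ratio of the 6 roles, -0.64. Nucleolin, encoded by Ncl (ENSMUSG00000026234, chr1:86344719-86359400, minus strand), binds precursor rRNA and is one of the most abundant nucleolar proteins. Its value went from 42.0 to 20.5 (2739 and 1040 reads), or 2.05-fold lower, with a log2 ratio of -1.02 and an interval of -1.14 to -0.93. After subtraction of a trend with gene length and GC content the ratio was -0.66. That used an annotated exonic length of 10188 bp, and isoforms in use were not measured, so the size of the correction is uncertain. Nucleophosmin, encoded by Npm1 (chr11:33152287-33163206, minus strand), is a chaperone that shapes the outer layer of the nucleolus. It went from 171.1 to 109.2, or 1.57-fold lower (log2 ratio -0.64, interval -0.69 to -0.60, and -0.46 after the same subtraction). Of the 31-base windows of the Npm1 transcript 45.5% also occur in another annotated gene, with 5 pseudogenes among them, so the counting of its reads is uncertain. Ddx21, an RNA helicase of rRNA transcription and processing, went from 69.5 to 58.1 (-0.26).

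Among the RNA polymerase I genes the largest subunit and the next largest differed. Polr1a (chr6:71909053-71984935, plus strand), the subunit that carries most of the catalytic site, went from 86.7 to 55.8, or 1.55-fold lower (log2 ratio -0.63, interval -0.70 to -0.57). Its partner Polr1b, with which it forms the core of the enzyme, went from 112.9 to 123.3 (0.13, interval 0.08 to 0.18). The ratios lay 0.76 apart, and 0.60 apart after the length and GC subtraction. Tcof1, the treacle protein that brings the polymerase to rRNA genes, was at 100.7 and 104.7 (0.06). Mybbp1a, a nucleolar protein that restrains rRNA synthesis, had the largest value of the 36 genes, at 1294 and 1159 (-0.16), although 131 bases of its exons overlap those of Spns2.

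In the box C/D snoRNP, Fbl and Nop56 were alike in both libraries while Nop58 was low. Fibrillarin, the methyltransferase encoded by Fbl, was at 329.9 and 343.4 (log2 ratio 0.06), but 79.0% of its windows occur in another annotated gene. The scaffold protein gene Nop56 was at 376.1 and 380.5 (0.02, with an interval that holds 0). The second scaffold gene, Nop58 (chr1:59684971-59719044, plus strand), went from 8.29 to 4.69 (541 and 238 reads, log2 ratio -0.76, interval -1.05 to -0.60). The ratios of Nop56 and Nop58 lay 0.78 apart, and 0.38 apart after the length and GC subtraction. Per kilobase of exons the level of Nop56 was 119.1-fold that of Nop58 in the LacZ library and 213.0-fold in the other, although both proteins are part of the same particle. With the length of 1 coding transcript per gene the ratios of levels were 229.8 and 411.1. Both annotated lengths of Nop58 are long, at 10758 bp of exons and 9507 bp in that transcript, against 4099 and 1877 bp for Nop56. Isoforms in use were not measured. Of the Nop56 windows 38.2% occur in another annotated gene, with 3 pseudogenes among them. The size of these ratios of levels, and of the gap of 0.38 after the subtraction, is therefore uncertain.

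In the box H/ACA snoRNP the gene of the enzyme and those of its partners differed. Nop10 (chr2:112261926-112263269, plus strand), the smallest core protein, went from 110.4 to 154.8, or 1.40-fold higher, with a log2 ratio of 0.49 (interval 0.44 to 0.53), the highest of the 36. The RNA-binding core protein gene Nhp2 went from 418.0 to 514.6 (0.30). The pseudouridine synthase itself, encoded by Dkc1 on chromosome X, went the other way, from 11.8 to 9.40 (769 and 477 reads, -0.31, interval -0.49 to -0.16). The ratio of Nop10 lay 0.80 above that of Dkc1, and that of Nhp2 0.61 above it. After the length and GC subtraction these gaps were 0.59 and 0.21. Nolc1, which gathers snoRNPs in nucleoli and Cajal bodies, went from 201.9 to 161.9 (-0.32), whereas the ratio of the related treacle gene Tcof1 was 0.06.

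The small subunit genes held both one of the lowest and one of the highest ratios. Wdr43 (ENSMUSG00000041057, chr17:71615895-71659031, plus strand), a protein of the processome part that loads first on the precursor, went from 31.4 to 15.2 (2048 and 774 reads). That is 2.06-fold lower, with a log2 ratio of -1.02 (interval -1.16 to -0.92) and of -0.83 after the length and GC subtraction. Heatr1, of the same early part, went from 20.4 to 13.3 (-0.59), and Utp20, a very large scaffold protein, from 19.8 to 10.4 (1289 and 526 reads, -0.90, interval -1.08 to -0.78). The helicase gene Ddx10 was barely read, at 1.09 and 0.453 (71 and 23 reads, -0.74, interval -2.01 to -0.57). Without the added 0.5, which the interval also leaves out, its log2 ratio was -1.26.

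The other 5 small subunit genes were higher in the Pspc1 hairpin library. Imp3 (chr9:56937475-56938398, plus strand), which helps the U3 snoRNA pair with the precursor, went from 167.0 to 230.1, or 1.38-fold higher (0.46, interval 0.42 to 0.50). Its complex partner Imp4 was at 61.7 and 63.8 (0.05), and the difference of 0.41 between both ratios was -0.04 after the length and GC subtraction. Noc4l went from 90.9 to 106.9 (0.23), the U3 snoRNP protein gene Rrp9 from 159.4 to 184.4 (0.21) and the export factor gene Rrp12 from 156.4 to 175.6 (0.17). These 3 ratios stood above 0 by more than their counting error and under 1.2-fold. Of the Imp3 windows 17.0% occur in another annotated gene, with 1 pseudogene among them.

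The 13 large subunit genes ranged from -0.43 (Gnl3) to 0.44 (Nop16). Of 12 with a mean of at least 20, 9 were higher and 3 lower in the Pspc1 hairpin library, with a median of 0.10, or -0.01 with scaling by total reads. The 3 protein genes of the PeBoW complex, which is needed to process the large subunit rRNA, had counting intervals that overlapped: Pes1 went from 194.6 to 225.2 (0.21), Bop1 from 319.7 to 365.5 (0.19) and Wdr12 from 24.1 to 25.3 (0.07). After the length and GC subtraction Wdr12 stood apart above the others, at 0.52 against 0.18 for Pes1 and 0.08 for Bop1. That 0.52 used an annotated exonic length of 11955 bp, whereas 1 coding transcript of Wdr12 has 2850 bp, so its size is uncertain. Without the subtraction the interval of Wdr12 held 0. Nop16, an early assembly factor, was the highest of the role, from 61.7 to 83.8, or 1.36-fold (0.44, interval 0.38 to 0.50). Grwd1, a ribosomal protein chaperone, went from 189.2 to 221.4 (0.23), Wdr74 from 139.8 to 157.8 (0.17) and Noc2l from 174.6 to 190.0 (0.12).

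The rRNA methyltransferase gene Nop2 (305.9 and 312.0, 0.03), Ppan (177.2 and 184.4, 0.06) and Rrs1 (230.9 and 218.4, -0.08) differed little between the libraries. Ebna1bp2 went from 170.6 to 152.3 (-0.16) and the helicase gene Ddx18 from 87.0 to 71.8 (-0.28), with 72.9% of the Ddx18 windows present in another annotated gene. Gnl3, which encodes the GTPase nucleostemin, went from 13.4 to 9.77 (873 and 496 reads, -0.43, interval -0.62 to -0.29).

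**Figure D2:**
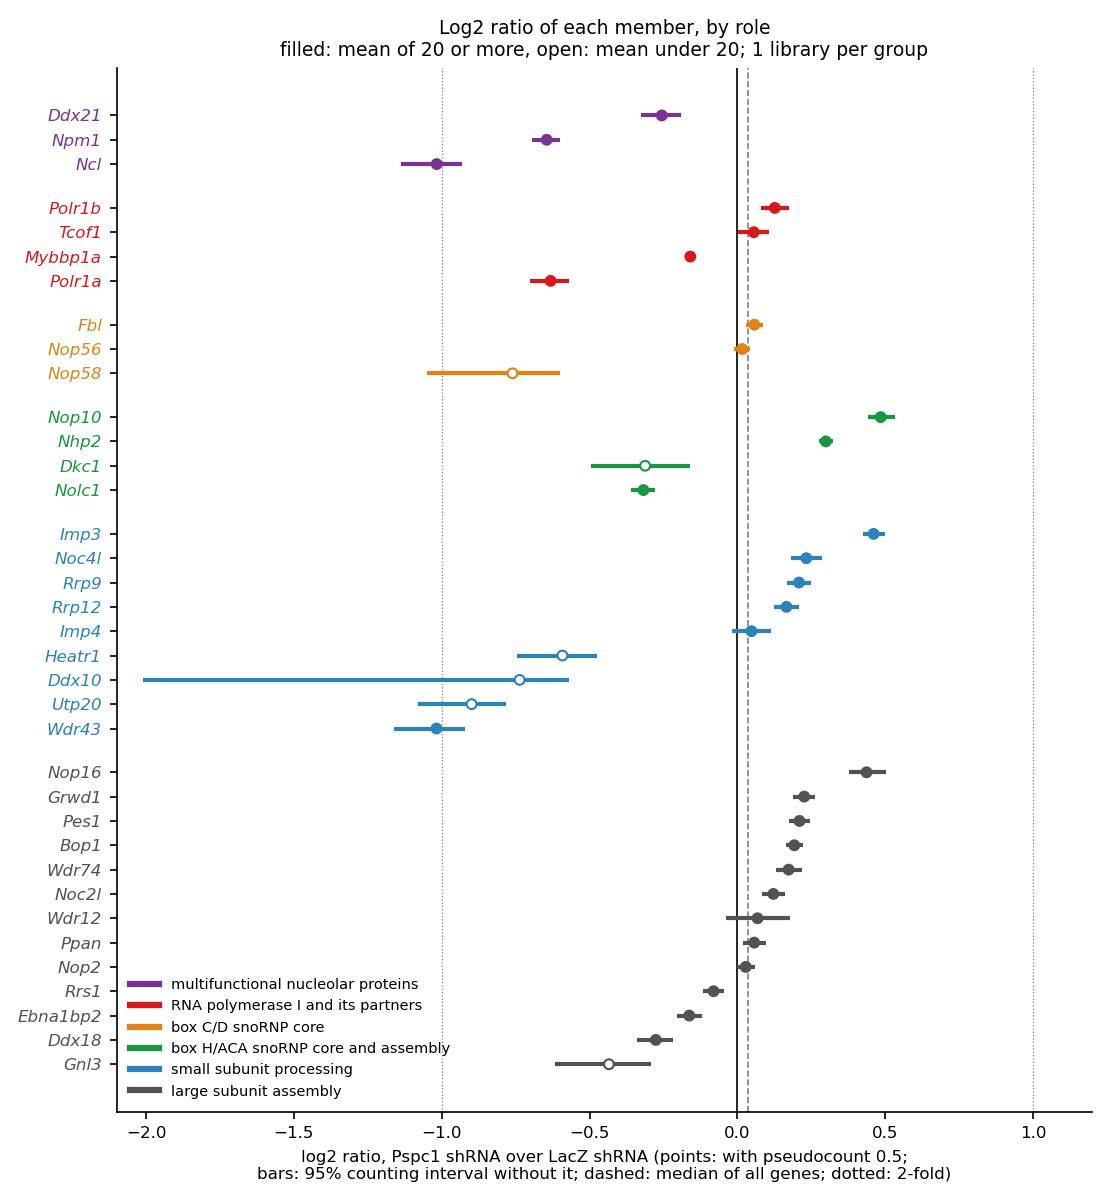
Log2 ratio of each of the 36 genes (x axis, Pspc1 hairpin over LacZ hairpin), grouped and coloured by role, with filled points for a mean of at least 20 and open points below it, bars for the 95% counting interval, a dashed line at the median of all genes and dotted lines at 2-fold. Every role but the general nucleolar proteins holds ratios on both sides of 0, and the interval of Ddx10 is the widest, at 1.44.

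With counting error alone, 16 of the 36 intervals lay below 0, 16 above it, and 4 held 0 (Nop56, Imp4, Nop2 and Wdr12). Over all 11405 listed genes 41.9% of the intervals lay below 0 and 33.3% above it. The 6 genes with a mean under 20 (Nop58, Dkc1, Heatr1, Utp20, Ddx10 and Gnl3) were all lower, with log2 ratios from -0.90 to -0.31. Of all 5513 listed genes under that mean, 65.3% were lower, with a median of -0.19. Among the 36 genes the share that was lower went down with the mean value, from 6 of 6 under 20 and 2 of 3 between 20 and 50 to 3 of 6 between 50 and 100, 3 of 12 between 100 and 200 and 1 of 7 between 200 and 400, with 1 of 2 above that. Over all listed genes the same bins gave 65.3%, 53.2%, 46.7%, 39.1%, 35.4% and 24.0%.

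Levels of the genes can be compared with each other only per kilobase of exons. On that scale the LacZ library ranged from 0.348 (Ddx10) to 364.7 (Nhp2), with a median of 40.1 against 5.08 over all listed genes. After Nhp2 came Mybbp1a (223.1) and Imp3 (180.8), and 28 of the 36 genes stood above the median of all genes. The 8 below it were Ncl (4.12), Dkc1, Gnl3, Heatr1, Utp20, Wdr12, Nop58 and Ddx10. In the Pspc1 hairpin library the range was 0.145 to 449.0 with a median of 41.1, and Polr1a and Wdr43 joined the genes below the median of 4.96. The order was much alike in both libraries (Spearman's rho 0.98 over the 36 genes, a description only). Lengths are those of the annotation, whose exons for Ncl add up to 10188 bp, and isoforms in use in MS1 cells were not measured. With the length of 1 coding transcript per gene, Fbl (275.6) and Nop56 (200.4) stood above Imp3 (180.8) in the LacZ library, and Wdr12 was at 8.47 in place of 2.02.

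Base composition and length moved with the ratios. Ranked over the 36 genes, the log2 ratio had a Spearman's rho of 0.61 with the GC content of the coding transcript and of -0.62 with exonic length. Over the 30 of mean 20 or more it was 0.45 and -0.56, and over the 5889 genes of that mean with both properties 0.30 and -0.32. These are descriptions across genes of the same 2 libraries, and GC content also went with level among the 36 genes (rho 0.61).

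The split by GC content was wide. Of 8 genes under 45% GC (Ncl, Npm1, Nop58, Dkc1, Wdr43, Ddx10, Gnl3 and Wdr12), 7 were lower and Wdr12 was not, with a median log2 ratio of -0.69. All listed genes with that GC content had a median of -0.37, and 81.2% of them were lower. Among those of mean 20 or more, 3 of 4 members were lower with a median of -0.83, against 74.7% and -0.23 for all genes. Of 10 genes with at least 55% GC, 0 were lower (with scaling by total reads Tcof1, Fbl and Ppan were). Of all genes of that GC content and a mean of 20 or more, 33.1% were lower. The median of the 10 was 0.18, against 0.13 over all those genes. By length, 14 genes under 3000 bp had a median of 0.20, against 0.14 over all genes of mean 20 or more. The 8 genes of at least 6000 bp had a median of -0.61, against -0.27 over all listed genes, and the 4 of them with a mean of 20 or more one of -0.29, against -0.11. After the length and GC subtraction, rho was 0.40 with GC content and -0.33 with length over the 36 genes, but 0.18 and -0.20 over the 30 of mean 20 or more. The 8 genes under 45% GC then had a median of -0.40, against -0.08 over all listed genes of that GC content.

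**Figure D3:**
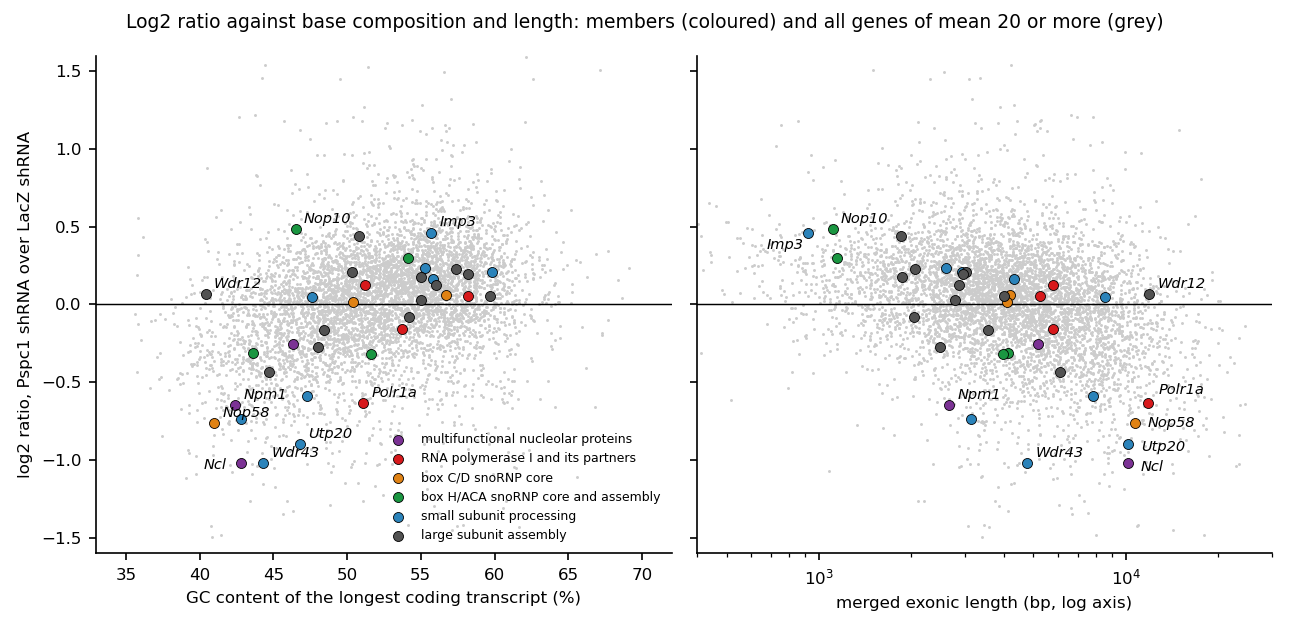
Log2 ratio (y axis) against GC content of the coding transcript in % (left) and merged exonic length in bp on a log axis (right) for the 36 genes (coloured by role) and all genes of mean 20 or more (grey, of which 34 of 5889 lie outside a panel). The genes with low GC content or long exons, such as Ncl, Nop58 and Utp20, sit low, while Wdr12 sits above 0 at 40.4% GC.

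The 7 snoRNA hosts were mostly low. Of them 5 were lower (Ncl, Wdr43, Nop58, Gnl3 and Dkc1) and Nop56 and Ppan were not, with a median log2 ratio of -0.43. These 5 have under 45% GC, and of all listed genes with that GC content 81.2% were lower. Nop58, Gnl3 and Dkc1 also had a mean under 20, where 65.3% of all listed genes were lower. Among the hosts of mean 20 or more, Ncl and Wdr43 were lower and Nop56 and Ppan were not. The other 29 genes had a median of 0.06, and 11 of them were lower. The hosts also had a lower median GC content (44.3% against 51.6%), and after the length and GC subtraction the medians were -0.22 and 0.01.

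The remaining genes of the pathway with a mean of 20 or more had a like spread, with 0 of them past 2-fold. A further 5 lists, of other RNA polymerase I, small subunit, large subunit, nuclear exosome and other snoRNP genes, held 136 listed genes, of which 95 had a mean of at least 20. Their median log2 ratio was 0.02 with quartiles at -0.14 and 0.16, against -0.16 and 0.20 for the 30 genes above. Of the 95 genes 44 were lower, 15 at least 1.2-fold lower, 14 at least 1.2-fold higher, 2 at least 1.5-fold lower and 1 at least 1.5-fold higher. These are 15.8%, 14.7%, 2.11% and 1.05% of the list, each under the share over all genes given above. The highest was Eif6 (866.9 and 1338, 0.63), the factor that keeps the immature large subunit from joining the small one. Nol6 (110.1 and 145.4, 0.40) and Wdr46 (143.3 and 182.7, 0.35) were the highest of the small subunit list at a mean of 50 or more. The polymerase I subunit genes Polr1c (105.5 and 113.8, 0.11) and Polr1d (348.0 and 374.4, 0.11) and the rRNA gene activator gene Ubtf (305.0 and 284.8, -0.10) stayed within 1.2-fold. Other genes of the same list were lower as Polr1a was, among them the subunit genes Znrd1 (48.3 and 35.5, -0.44, interval -0.53 to -0.36) and Twistnb (4.49 and 2.78, -0.61).

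The genes of the ribosome's own proteins lay higher. Of 77 cytosolic ribosomal protein genes of mean 20 or more, 76 were higher in the Pspc1 hairpin library with 54 of them by at least 1.2-fold, with a median of 0.31, or 0.21 after the length and GC subtraction. That is 70.1% of the list, against 21.0% of all genes, and after the subtraction 23 were at least 1.2-fold higher, or 29.9%, against 20.4%. These genes also have high values, with a median of 1047 in the LacZ library. All listed genes with a mean of at least 400 had a median log2 ratio of 0.17, and 24.0% of them were lower. Of 15 RNA polymerase III genes 9 were lower (median -0.08, or 0.01 with 6 lower after the subtraction), among them Gtf3a, the factor for 5S rRNA genes (83.3 and 66.2, -0.33). Of 12 MYC network and mTOR genes 8 were lower (median -0.17), against 2653 of all 5892 genes of mean 20 or more. After the subtraction 7 were lower (median -0.15). The genes at least 1.2-fold lower went from 5 (41.7%) to 2 (16.7%), against 18.8% and 14.2% of all genes. Those at least 1.2-fold higher went from 2 (16.7%) to 1 (8.33%), against 21.0% and 20.4%. The median exonic length of the 12 was 8023.5 bp. Of all 1618 genes of that mean with at least 6000 bp, 1038 were lower. Myc itself was at 59.7 and 53.6 (-0.15) and its partner Max at 73.4 and 56.5 (-0.37). The lowest of the 12 was Mxd4, at 65.5 and 47.9 (-0.45). Akt1s1, an inhibitor of mTOR complex 1, went from 201.3 to 282.7 (0.49).

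A list of p53 and nucleolar stress genes was mostly higher. Of 10 with a mean of 20 or more 9 were higher, with a median of 0.27, against 3239 of all 5892 genes of that mean. The 10 include Trp53 itself and 3 ribosomal protein genes that are also in the ribosomal list above. The list's 2 genes under that mean were lower. Cdkn1a, the p21 inhibitor of cyclin-dependent kinases, went from 500.5 to 838.6 (0.74) and Trp53 from 362.6 to 524.0 (0.53), whereas Mdm2 went from 58.6 to 46.4 (-0.33). Of 18 proliferation genes 11 were lower and 7 higher (median -0.07), against 2653 lower of all 5892 genes of mean 20 or more. The list's 4 genes under that mean were all lower, with log2 ratios from -1.43 to -0.90. Of all listed genes under that mean 65.3% were lower. At least 1.2-fold lower were 5 of the 18 (27.8%), and at least 1.2-fold higher 1 (5.56%), against 18.8% and 21.0% of all genes. After the length and GC subtraction these were 3 (16.7%) and 1, against 14.2% and 20.4%. Pcna was at 409.5 and 331.2 (-0.31) and Tpx2 at 79.8 and 63.1 (-0.34), while Aurka, the highest, was at 202.5 and 244.3 (0.27). Whether growth of the cells differed between the groups was not tested.

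**Figure D4:**
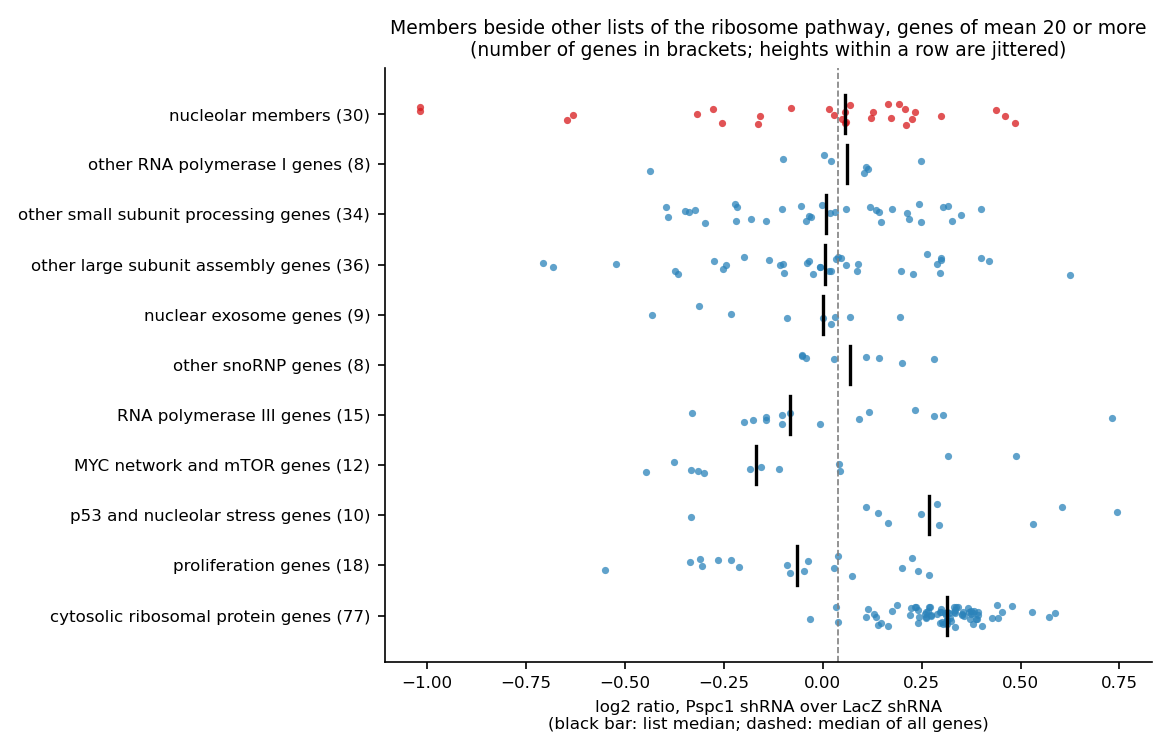
Log2 ratio (x axis) of each gene of mean 20 or more in the nucleolar list (red, 30 genes) and 10 other lists (blue), with a black bar at each list's median and a dashed line at the median of all genes. The nucleolar genes reach lowest, to -1.02, and their median of 0.06 lies well under that of the ribosomal protein genes, 0.31.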

How the data were processed

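Poly-A RNA of MS1 cells was sequenced in 1 library per group, with groups taken from the treatment label. The submitters' processing notes name, without role or order, DESeq 1.39.0, featureCounts 2.0.0, HISAT2 2.1.0 and Trimmomatic 0.39, and the build mm10. What was deposited is 1 signal value per gene, scaled by the authors, and the scaling formula was not given in the sources used here. Every value was a whole multiple of 1 step per library within 0.01 reads (0.0153 and 0.0197 for 1 read), and dividing by that step gave the reads behind the counting intervals. The reads carry no molecular identifiers, so these intervals hold counting error only.

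The log2 ratio was log2((Pspc1 + 0.5)/(LacZ + 0.5)), which understates changes of low values, and genes whose values in both libraries averaged 20 or more entered the counts past 1.2-fold, 1.5-fold and 2-fold. For the length and GC subtraction a smooth trend over exonic length and GC content was fitted on all genes of that mean. Positions, lengths and exon overlaps came from GENCODE M21, with 11399 of 11405 identifiers matched to a symbol. The labels name no kit that marks strand, so exons shared with an antisense gene are not separable. Promoters came from RefSeq tables of GRCm38.p6. Shared sequence was the share of 31-base windows of the coding transcript found in another annotated gene. The members and lists were chosen with earlier results of these data known. All members may be named, and of each other list up to 4 genes of mean 50 or more with the largest absolute log2 ratio. Pecam1, Krt18, Pdgfra, Pdgfrb, Myc, Znrd1 and Twistnb lie outside that rule and were chosen after their values were seen. The alternatives were 3 other scalings, pseudocounts of 5 or none, minimums of 50 or none, the length and GC subtraction, and leaving out members with exon overlap, snoRNA hosts or, added after seeing the data, pseudogene copies. The steps were tested on simulated data. Python 3.11.15 with numpy 2.4.6, pandas 2.3.3, scipy 1.17.1 and matplotlib 3.10.9 were used.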

Additional observations from a re-analysis of the deposited data

How the results depend on the processing

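The median log2 ratio of the 30 genes, 0.06 as deposited, was 0.10 under TMM scaling, 0.11 under median-of-ratios scaling and -0.046 under scaling by total reads, which turned its sign. Scaling by total reads made 17 genes lower in place of 10. Without a minimum mean, which adds the 6 low genes, 16 were lower, 12 by at least 1.2-fold and 8 by at least 1.5-fold. The count of genes at least 1.5-fold lower, 4, became 2 with a minimum mean of 50, after the length and GC subtraction, and without the snoRNA hosts. The count at least 2-fold lower, 2, became 0 under those 3 settings, under TMM and median-of-ratios scaling and with a pseudocount of 5. Sign changes of single genes were 7 with total reads (Tcof1, Fbl, Nop56, Imp4, Nop2, Ppan and Wdr12), 2 after the length and GC subtraction (Fbl and Nop2) and 0 with the other scalings and pseudocounts. Without members that have pseudogene copies, 8 genes were lower, with 4 lower and 3 higher by at least 1.2-fold. The length and GC subtraction of levels per kilobase was not run. No paired analysis was possible because each group held 1 library, and for the same reason leaving out a library leaves no comparison. Depth limits Ddx10 most, with 71 and 23 reads.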

Other observations

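The ribosome biogenesis genes with low values lay on the same side of 0. In the 5 other lists (RNA polymerase I, small subunit, large subunit, nuclear exosome and snoRNP genes outside the 36), 41 genes had a mean of both values under 20, and 41 of 41 were lower in the Pspc1 hairpin library. Their log2 ratios ran from -0.93 to -0.02 with a median of -0.42, and 34 counting intervals lay wholly below 0, against 47.2% of those of all genes under that mean. Of all 5513 listed genes under that mean 65.3% were lower, with a median of -0.19. Under TMM or median-of-ratios scaling 39 of the 41 were lower, and after the length and GC subtraction 36 were, against 59.5% of all genes under that mean. Their median GC content was 44.4%, against 48.1% for all genes under that mean. Among the lowest, and chosen after their values were seen, were Krr1, a small subunit factor (3.68 and 1.69, log2 ratio -0.93), Nop14, a partner of Noc4l (13.4 and 7.09, -0.88), Naf1, an assembly factor of box H/ACA snoRNPs (11.3 and 5.93, -0.87), and Taf1d, of the RNA polymerase I selectivity factor (14.9 and 8.92, -0.71). At the other end Dimt1, an rRNA methyltransferase gene, stood at 13.8 and 13.5 (-0.03). Members of the same lists with a mean between 100 and 200 were lower in 5 of 20 cases, with a median of 0.19, against 39.1% and 0.08 for all genes in that range. With 1 library per group these shares describe the 2 libraries.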
